A study of Homo sapiens with 15 samples.

Results

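Knockout groups of 1 cell line were set directly against each other: HEK293T libraries labelled SNRPD2KO and HEK293T libraries labelled PUS7KO, 3 libraries in each group, chosen by their sample labels and compared over every gene that passed the count filter. These 6 libraries are part of a series of 15, and 15882 of the 62703 genes in the HEK293T table were tested. HEK293T is an established line from human embryonic kidney that carries a viral large T antigen. KO stands for a knockout made with CRISPR-Cas9, the labels do not say whether a group is 1 clone or a pool, and nothing in them says that replicates were separate cultures, so p values measure the spread between these libraries. Both groups share the line and the culture medium, and neither received an added agent according to the labels. The 3 HEK293T libraries labelled Ctrl were not tested against either group here. They entered the fit to estimate the spread between replicates, and some of their values are printed as background.

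PUS7 is a stand-alone pseudouridine synthase, an enzyme that rotates uridine in RNA into pseudouridine without a guide RNA, on transfer RNAs and on messenger RNAs. SNRPD2 encodes SMD2, one of the proteins of the Sm ring that encloses the spliceosomal small nuclear RNAs and is needed for their assembly into particles. The series was designed around a proposed interaction between SMD2 and pseudouridine, and the direct comparison asks where the RNA levels of the 2 knockout groups part from each other. Splicing itself was not measured, because the table holds counts per gene.

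Total counts were 10080682 to 11270267 in SNRPD2KO and 10022912 to 11181703 in PUS7KO. Small noncoding RNAs took 30.0% to 35.7% of the counts in SNRPD2KO and 28.2% to 33.5% in PUS7KO. The difference of 2.06 percentage points in their means did not pass a two-sided exact permutation test over libraries (p = 0.5, where 3 against 3 cannot go below 0.1). The HEK293T markers summed to 1122 to 1194 CPM in SNRPD2KO and 1162 to 1283 in PUS7KO, where CPM are counts scaled to the library total and corrected by TMM factors, and 12 of the 14 markers had a mean over 1 CPM in each group. SNRPD2KO replicate 3 stood between the groups. Its log2 CPM correlated with the 3 PUS7KO libraries at 0.982 to 0.984, and at 0.982 with each of the other two SNRPD2KO libraries, across 15882 genes that are not independent of each other.

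PUS7 itself had the smallest adjusted p of all genes. PUS7 (ENSG00000091127.14, chromosome 7, 105439661 to 105522271, minus strand, build hg38) stood at 31.1, 31.3 and 32.8 CPM in the libraries labelled SNRPD2KO and at 13.7, 18.1 and 16.3 CPM in those labelled PUS7KO. The groups did not overlap, and the Ctrl libraries held 26.5, 26.0 and 27.0 CPM. The level in SNRPD2KO was 1.98 times that in PUS7KO, which is 0.98 on the log2 scale (standard error 0.11, 95% interval 0.75 to 1.22). Its Benjamini-Hochberg adjusted p in edgeR's quasi-likelihood test was 0.0018. PUS7 RNA was counted in every PUS7KO library, and a small edit that leaves the RNA in place is not visible in gene counts.

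SNRPD2 did not separate the 2 groups. SNRPD2 (ENSG00000125743.11, chromosome 19, 45687460 to 45692569, minus strand) stood at 309, 286 and 246 CPM in SNRPD2KO, at 266, 236 and 280 CPM in PUS7KO, and at 196, 169 and 182 CPM in Ctrl. The groups overlapped, and the difference on the log2 scale was 0.11 (95% interval -0.10 to 0.31, edgeR adjusted p = 0.56). Every library labelled SNRPD2KO held more SNRPD2 RNA than every Ctrl library, so the RNA level shows no loss under that label. Every PUS7KO library also held more than every Ctrl library, so the excess over Ctrl is not particular to the SNRPD2KO label. Here too a small edit that leaves the RNA in place is not visible. SNRPD2 overlaps QPCTL on the opposite strand. In the deposited table the libraries labelled SNRPD2KO stand in columns lettered C, and those labelled Ctrl in columns lettered S. Which of these groups carries the SNRPD2 edit cannot be told from these counts, and every direction below is that of the labels.

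Across all genes, 758 of 15882 passed an adjusted p of 0.05, which is 4.77% of the genes tested. Of these, 249 (1.57%) were higher in SNRPD2KO and 509 (3.2%) were lower. The differences were small: the called genes had a median absolute log2 fold change of 0.55, 54 exceeded 2-fold (20 higher and 34 lower), and 441 stayed under 1.5-fold. Protein-coding genes made up 723 of the calls and long noncoding RNAs 25. The 3 libraries of one group lay wholly above or below the 3 of the other for 4001 genes, or 25.2%, and for 730 of the 758 called genes.

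The number of calls depended on single libraries. It was 22 without SNRPD2KO replicate 1, 29 without SNRPD2KO replicate 2 and 1891 without SNRPD2KO replicate 3. It was 285, 32 and 662 without PUS7KO replicates 1, 2 and 3. The genes called in all 6 of these fits numbered 18, with 7 higher and 11 lower in SNRPD2KO, and each of the 18 also passed after the trend with GC content described below had been removed. They include PUS7, IFI6, IFIT1, WDR73, CPNE1, MAPK8IP2 and HBB among the higher genes, and PUS7L, ATF3, RPS2, PTAR1, ZNF644, ZGRF1, EDIL3, ITGAV and SCOC among the lower. MAPK8IP2 and ZGRF1 were named after their values were seen.

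**Figure D1:**
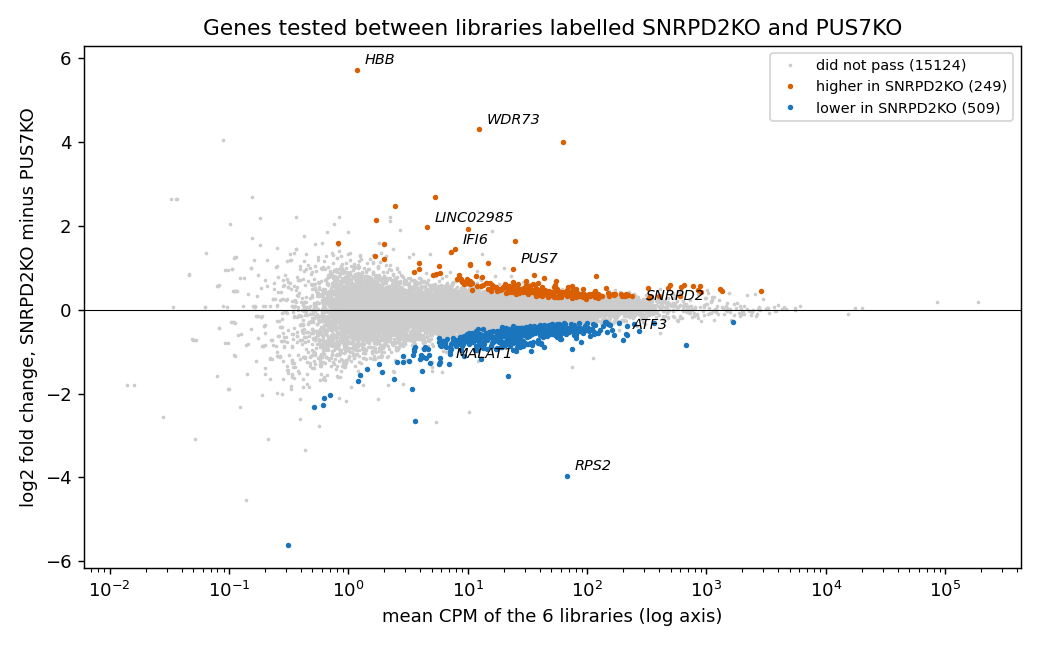
Each point is 1 of the 15882 genes tested, with its mean CPM over the 6 libraries on a log axis and its log2 fold change, SNRPD2KO minus PUS7KO. Coloured points are the 249 genes called higher and the 509 called lower, and most of them lie within 1 log2 unit of 0.

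The calls followed the base composition of the transcripts. Genes called lower in SNRPD2KO had a median GC content of 37.8%, genes called higher 57.5%, and all genes 47.9%, with GC content known for 15406 genes (97%). With genes split into 5 equal classes by GC content, 400 were called lower and 1 higher in the lowest class, and 2 were lower and 124 higher in the highest. Across genes, GC content and log2 fold change had a Spearman rho of 0.49, which is a description, since genes share their libraries. The trend was graded among libraries: rho between GC content and the deviation from the mean of the 6 libraries was 0.40, 0.36 and 0.09 in SNRPD2KO replicates 1, 2 and 3, and -0.25, -0.53 and -0.10 in PUS7KO replicates 1, 2 and 3. SNRPD2KO replicate 3 and PUS7KO replicate 3 were thus the mildest of their groups and PUS7KO replicate 2 the strongest. With a trend on GC content removed from each library, 127 genes were called, 65 higher and 62 lower, so that the share of higher calls moved from 32.8% to 51.2%, and 82 of the 758 calls were still called. Transcript length moved too, with 253 lower calls in the class with the longest transcripts against 24 in the class with the shortest. Base composition and group label cannot be told apart in these libraries beyond what the trend removal shows.

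**Figure D2:**
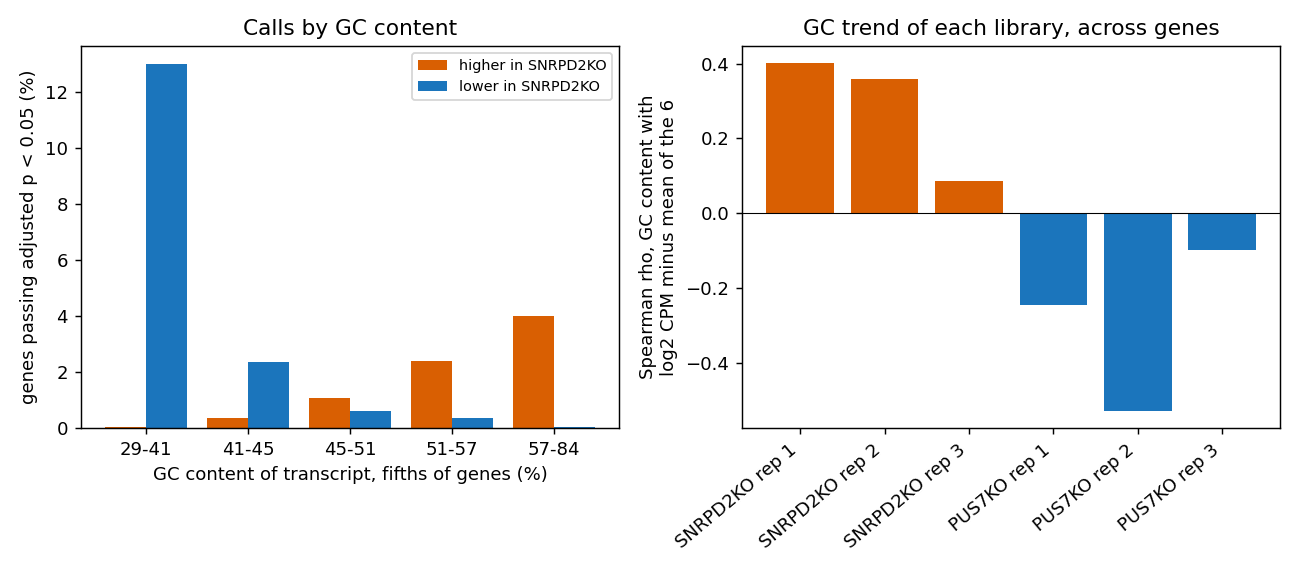
Left, the percentage of genes called higher or lower in SNRPD2KO in each of 5 equal classes of genes by GC content of the transcript. Right, Spearman rho across genes between GC content and each library's log2 CPM minus the mean of the 6 libraries, positive in the 3 SNRPD2KO libraries and negative in the 3 PUS7KO libraries.

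Among the 12 stand-alone pseudouridine synthases tested, 5 were higher, PUS7 among them, and 2 lower in SNRPD2KO, 58.3% of the list against 4.77% of all genes, with a median log2 fold change of 0.28 against 0.01. PUS7L, the paralogue of PUS7, moved opposite to it. PUS7L stood at 17.5, 15.6 and 21.6 CPM in SNRPD2KO and at 30.7, 40.1 and 30.8 in PUS7KO, without overlap (log2 fold change -0.89 with a standard error of 0.14, edgeR adjusted p = 0.0062). TRUB1, a synthase of transfer RNAs and messenger RNAs, also fell, from 25.2, 29.1 and 22.9 CPM in PUS7KO to 14.7, 15.4 and 19.5 in SNRPD2KO (log2 fold change -0.63). The Ctrl libraries held 26.1 to 31.6 CPM of PUS7L and 26.3 to 30.8 of TRUB1. PUS1, which acts on cytosolic and mitochondrial transfer RNAs, rose by 0.56 on the log2 scale, with 41.6, 44.2 and 32.0 CPM against 29.5, 24.5 and 25.7.

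RPUSD1 (0.61), RPUSD2 (0.50) and TRUB2 (0.35), the last a mitochondrial enzyme, also rose. RPUSD4 at 0.41 missed the threshold (edgeR adjusted p = 0.052). PUSL1, RPUSD3, PUS3 and PUS10 had log2 fold changes of 0.21 to -0.12, with adjusted p of 0.33 to 0.92. PUS7 and PUS7L passed in every fit that left out 1 library and with the GC trend removed, where their log2 fold changes were 1.10 and -0.47. The other 5 calls were lost without SNRPD2KO replicate 1, without SNRPD2KO replicate 2, without PUS7KO replicate 2 and with the GC trend removed. PUS7L and TRUB1 have GC contents of 34.2% and 35.5%, and PUS7 has 41.9%.

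**Figure D3:**
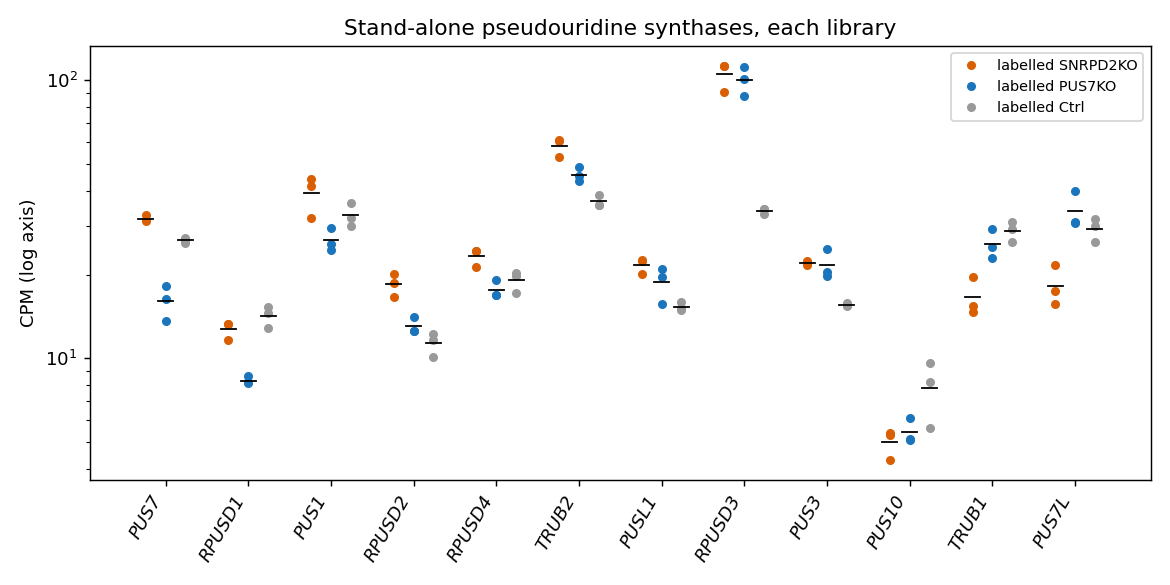
CPM of the 12 pseudouridine synthases in each library on a log axis, with points for libraries and short bars for the mean of each group of 3. PUS7 is at 13.7 to 18.1 CPM in PUS7KO and at 31.1 to 32.8 in SNRPD2KO, and PUS7L shows the opposite order.

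The H/ACA particles make pseudouridines with a guide RNA. None of 13 H/ACA and box C/D snoRNP proteins was called, and their log2 fold changes ran from -0.13 to 0.25. Of 48 transfer RNA modification enzymes 4 rose and 1 fell, 10.4% of the list against 4.77% of all genes. The methyltransferase TRMT61A rose by 0.77, with 18.8, 18.1 and 13.0 CPM against 10.1, 7.68 and 11.4. TRMT1 rose by 0.50, the dihydrouridine synthase DUS1L by 0.37 and TRMT2A by 0.31, and TYW3, of the wybutosine pathway, fell by 0.46 on the log2 scale. None of these 5 calls remained with the GC trend removed, without SNRPD2KO replicate 1, without SNRPD2KO replicate 2 or without PUS7KO replicate 2.

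Of the 12 largest rises, 3 were interferon-stimulated genes and 1 was an interferon-inducible proteasome gene. IFI6, a membrane protein induced by interferon, stood at 12.3, 12.8 and 9.47 CPM in SNRPD2KO and at 4.87, 3.51 and 4.27 in PUS7KO, 2.73 times higher (log2 fold change 1.45 with a standard error of 0.21, edgeR adjusted p = 0.0057). IFIT1, which binds viral RNA that lacks a methylated cap, stood at 13.2, 12.3 and 17.1 CPM against 7.83, 7.01 and 5.20 (log2 fold change 1.09, adjusted p = 0.0083). OAS3, which makes the second messenger that activates RNase L, stood at 9.55, 7.48 and 6.14 CPM against 4.11, 3.34 and 3.75 (1.04, adjusted p = 0.019). PSME2, an interferon-inducible subunit of the proteasome activator PA28 on the list of MHC class I and proteasome genes, stood at 17.7, 12.2 and 13.0 CPM against 8.12, 6.34 and 5.83 (1.07, adjusted p = 0.0092). In each of these 4 genes the lowest SNRPD2KO library lay above the highest PUS7KO library. The rule for the 12 largest rises required this, so it is no further evidence. Over all genes tested, 25.2% had groups that did not overlap, in either direction. Ctrl values were 2.05 to 3.32 CPM for IFI6, 6.82 to 7.61 for IFIT1, 3.64 to 5.14 for OAS3 and 8.52 to 10.2 for PSME2.

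The 250 bases upstream of the RefSeq start of these 4 genes (build GRCh38.p14) are shown because the genes moved together and share a motif in this window. Sequences run 5′ to 3′ in the direction of the gene, and capitals mark GAAA followed by any 2 bases and GAAA, the core of the interferon-stimulated response element, on either strand.
IFI6 chr1:27672193-27672442 (minus strand): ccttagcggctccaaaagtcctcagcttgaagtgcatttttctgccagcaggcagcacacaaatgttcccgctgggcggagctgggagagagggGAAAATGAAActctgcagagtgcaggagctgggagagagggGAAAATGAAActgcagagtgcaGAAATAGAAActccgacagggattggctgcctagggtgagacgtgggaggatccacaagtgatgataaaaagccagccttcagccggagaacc
IFIT1 chr10:89392373-89392622 (plus strand): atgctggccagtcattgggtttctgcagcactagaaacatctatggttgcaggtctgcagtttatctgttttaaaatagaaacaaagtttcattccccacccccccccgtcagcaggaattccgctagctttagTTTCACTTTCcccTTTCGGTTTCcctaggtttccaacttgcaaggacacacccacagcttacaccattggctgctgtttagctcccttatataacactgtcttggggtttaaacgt
OAS3 chr12:112938224-112938473 (plus strand): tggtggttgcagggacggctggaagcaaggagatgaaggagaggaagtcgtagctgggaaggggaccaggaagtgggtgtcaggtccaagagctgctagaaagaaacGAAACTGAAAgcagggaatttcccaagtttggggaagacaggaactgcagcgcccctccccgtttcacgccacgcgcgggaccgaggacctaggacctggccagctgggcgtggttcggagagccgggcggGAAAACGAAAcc
PSME2 chr14:24146611-24146860 (minus strand): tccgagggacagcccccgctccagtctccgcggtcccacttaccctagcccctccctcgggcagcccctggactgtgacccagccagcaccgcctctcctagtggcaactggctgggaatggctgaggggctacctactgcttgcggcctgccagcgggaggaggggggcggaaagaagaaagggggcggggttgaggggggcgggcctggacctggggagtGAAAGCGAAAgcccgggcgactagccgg
IFI6 held 3 matches, IFIT1 and OAS3 held 2 each and PSME2 held 1. The motif was searched on both strands with overlaps allowed. Of all 35116 RefSeq windows of this length 3.02% held it, as did 15 of the 21 interferon-stimulated genes that were tested and matched by symbol. Among called genes with a window it stood in 8 of 202 higher genes (3.96%) and 10 of 404 lower genes (2.48%). A match describes these letters and is no evidence of binding.

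Of the 25 interferon-stimulated genes tested, 3 rose and none fell, 12% of the list against 1.57% called higher overall. The median log2 fold change of the list was 0.36, and 21 of its members were above 0. OASL (1.22), IFIT3 (1.20) and IFI44L (0.95) had values as large but were counted at under 4 CPM, with adjusted p of 0.077 to 0.16. USP18, which restrains interferon signalling, was at 0.43 (adjusted p = 0.076). STAT2 (0.02), a transcription factor of the pathway, did not pass (adjusted p = 0.93). IFI6, IFIT1 and OAS3 passed with the GC trend removed (1.33, 1.19 and 0.94). IFI6 and IFIT1 passed in all 6 fits without 1 library, and OAS3 failed without SNRPD2KO replicate 1, SNRPD2KO replicate 2 or PUS7KO replicate 2. IFIT1 overlaps LIPA on the opposite strand, and whether counting used strand is not given in the sources used here. Of 40 MHC class I and proteasome genes 2 rose, PSME2 and PSME3 (0.34), and none fell, 5% of the list and near the background of 4.77%. PSME2 passed with the GC trend removed (1.01) and failed without SNRPD2KO replicate 1. PSME3 was lost with the GC trend removed (adjusted p = 0.097) and without SNRPD2KO replicate 1, SNRPD2KO replicate 2, PUS7KO replicate 1 or PUS7KO replicate 2. None of 15 genes of the NF-kappaB list was called.

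**Figure D4:**
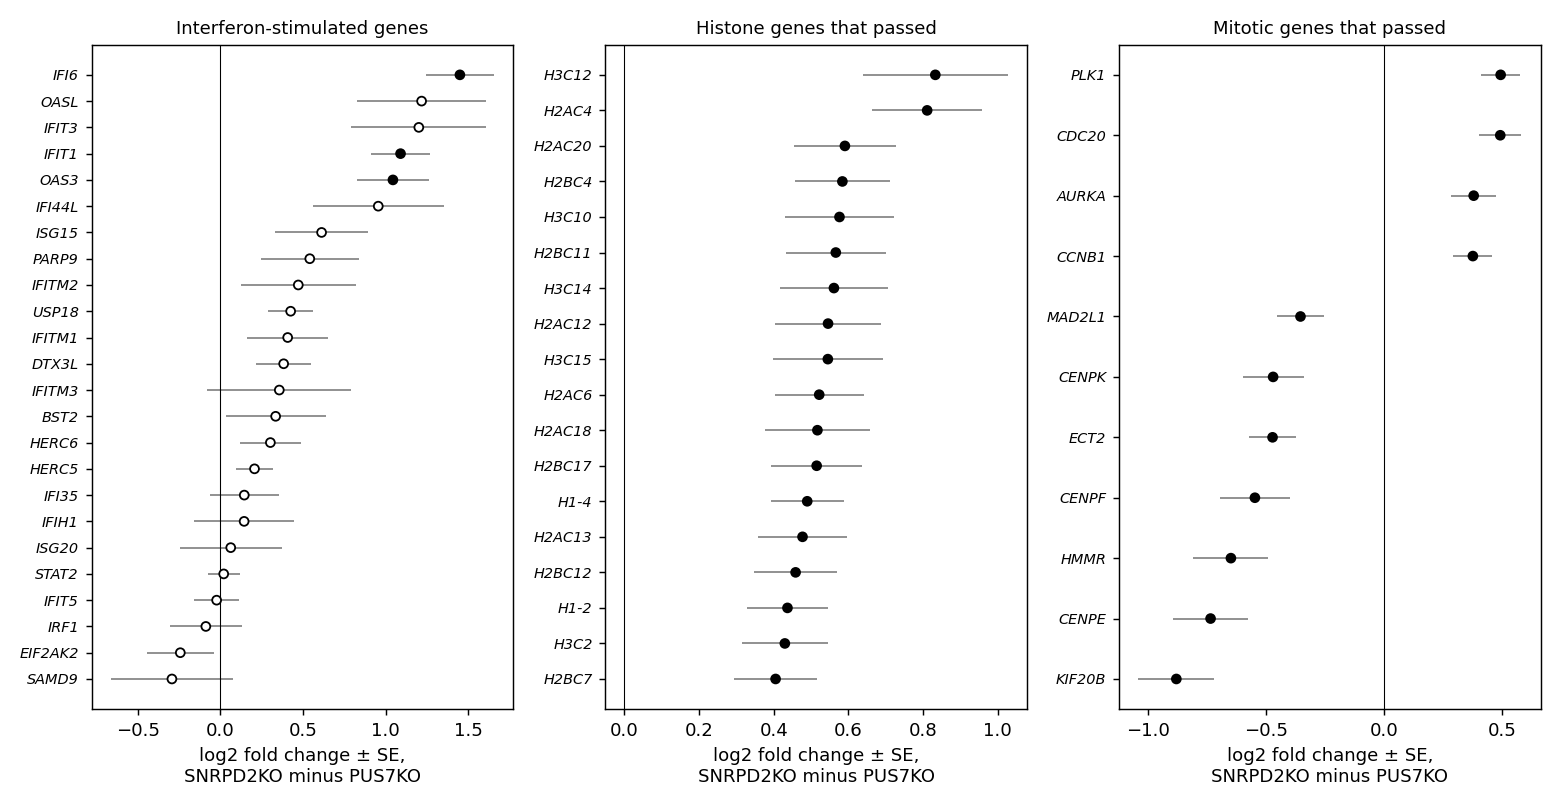
Log2 fold change with its standard error, SNRPD2KO minus PUS7KO, for interferon-stimulated genes (filled points passed, open points did not), the 18 histone genes that passed and the 11 mitotic genes that passed. IFI6, IFIT1 and OAS3 are the filled interferon points, all 18 histone points lie above 0 and the mitotic genes lie on both sides.

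Histone genes were gathered by symbol after their values had been seen, so their count is a description. The replication-dependent histone genes supply the histones of new chromatin, and their messages end without a poly(A) tail. Of 53 tested, 18 passed and were higher in SNRPD2KO, and none was lower. That is 34% of the list, against 1.57% of all genes called higher. The median log2 fold change was 0.41. H2AC4 stood at 167, 176 and 114 CPM in SNRPD2KO and at 87.4, 71.9 and 101 CPM in PUS7KO (log2 fold change 0.81 with a standard error of 0.15). H2BC4 stood at 851, 862 and 598 CPM against 528, 434 and 581 (0.58). SNRPD2KO replicate 3 was the lowest of its group in both, close to the highest PUS7KO library. The groups were apart in 8 of the 53 genes, a smaller share than the 25.2% of all genes tested. Without SNRPD2KO replicate 3 there were 41 calls, without either of the other SNRPD2KO libraries or without PUS7KO replicate 2 there were 0, and with the GC trend removed 3 remained, H2AC4, H2AC6 and H2BC4. The libraries with the smallest share of small noncoding RNA, SNRPD2KO replicate 3 at 30.0% and PUS7KO replicate 2 at 28.2%, also had the lowest H2AC4 of their groups. With small noncoding RNAs left out of the table, 20 histone genes were called higher. Whether the share of small noncoding RNA bears on the histone levels was not tested.

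Mitotic genes split into 2 directions. Of 51 tested, 4 rose and 7 fell, 21.6% of the list against 4.77% of all genes (1.57% higher and 3.2% lower). The kinase PLK1 (0.49), the anaphase activator CDC20 (0.49), the kinase AURKA (0.38) and cyclin B1, CCNB1 (0.38), were higher in SNRPD2KO. PLK1 stood at 68.1, 66.4 and 63.1 CPM against 48.8, 43.3 and 48.3. The kinesins KIF20B (-0.88) and CENPE (-0.73), the spindle protein HMMR (-0.65), the kinetochore proteins CENPF (-0.55) and CENPK (-0.47), the cytokinesis factor ECT2 (-0.47) and the checkpoint protein MAD2L1 (-0.35) were lower. KIF20B stood at 11.1, 11.9 and 17.7 CPM against 21.6, 29.4 and 24.2. With the GC trend removed PLK1, CDC20 and CCNB1 were called and none of the 7 lower genes was. No mitotic gene was called without SNRPD2KO replicate 1 or without SNRPD2KO replicate 2, PLK1 alone was called without PUS7KO replicate 2, and 8 higher and 13 lower genes were called without SNRPD2KO replicate 3. Of 48 DNA replication genes POLA2 (0.41) and MCM5 (0.38) rose and WDHD1 (-0.35) fell. These 3 were 6.25% of their list, close to the background. Of 44 DNA repair genes BRCA2 (-0.69) and NBN (-0.48) passed, 4.55% of the list and thus at the background of 4.77%. All 5 of these calls were lost with the GC trend removed, where BRCA2 and NBN had adjusted p of 0.31 and 0.37, and without SNRPD2KO replicate 1, SNRPD2KO replicate 2 or PUS7KO replicate 2. With a replicate block no DNA repair gene was called.

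Against 4.77% called over all genes, the spliceosome lists had calls in 14.3% of the Sm ring genes, 10.3% of the U1 and U2 genes, 6.25% of the SMN and of the tri-snRNP genes, 3.33% of the PRP19 and catalytic factors, 7.69% of the minor spliceosome genes, 10% of the SR proteins and kinases and 12.5% of the hnRNP and related genes. Of 7 Sm ring genes tested only SNRPE passed, lower in SNRPD2KO at 128, 123 and 125 CPM against 160, 149 and 154 (log2 fold change -0.30, edgeR adjusted p = 0.035). None of 12 LSm genes was called. Of 29 genes of U1 and U2 proteins 3 fell, among them U2SURP (-0.48) and SF3B6 (-0.35). WDR77, a partner of the methyltransferase that modifies Sm proteins, rose by 0.40 as the only call of 16 genes of the SMN list. Single calls were CD2BP2 (0.32) among 16 tri-snRNP genes, BCAS2 (-0.48) among 30 PRP19 and catalytic factors and ZCRB1 (-0.43) among 13 minor spliceosome genes. Among 30 SR proteins and kinases SRSF12 (-0.56) and SRSF11 (-0.48) fell and THRAP3 (0.35) rose. Among 40 hnRNP and related genes 3 fell, MBNL2 (-0.86), QKI (-0.53) and PTBP3 (-0.42), and 2 rose, with SFPQ (0.33) among them. Each of these calls on splicing proteins was lost with the GC trend removed, and each was lost without SNRPD2KO replicate 1, without SNRPD2KO replicate 2 and without PUS7KO replicate 2. Of 23 spliceosomal and other abundant small RNAs 1 passed, 4.35% of the list and near the background of 4.77%. It was RNVU1-18, a variant U1 RNA, which rose by 0.77, with 64.1, 59.8 and 41.6 CPM against 34.8, 30.6 and 31.6. RNVU1-8, found by gene type, rose by 0.61. Both U1 variants have near-identical copies, so their values are uncertain. By the same gene-type rule the snoRNAs SNORA40 (-1.59, with overlapping groups) and SNORD45A fell. All of these small RNA calls were lost with the GC trend removed. Of the 6 fits without 1 library, RNVU1-18 and SNORD45A passed in 2 each and RNVU1-8 and SNORA40 in 1 each.

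Of 21 exon junction and nonsense-mediated decay factors, SMG5 (0.34), SMG8 (0.31) and EIF4A3 rose, 14.3% of the list against 4.77% of all genes. None of the list was called with the GC trend removed, with the 6 libraries alone, or without SNRPD2KO replicate 1, SNRPD2KO replicate 2 or PUS7KO replicate 2. EIF4A3, the helicase of the exon junction core, varied within groups, at 30.0, 21.0 and 61.9 CPM against 12.03, 3.67 and 21.8, and the groups overlapped. The nuclear long noncoding RNAs gave 5 falls among 31 and no rise, 16.1% of the list against 3.2% called lower over all genes. MALAT1, a transcript of nuclear speckles, stood at 2.58, 3.19 and 6.06 CPM in SNRPD2KO and at 8.60, 9.35 and 11.9 in PUS7KO (log2 fold change -1.29 with a standard error of 0.24, edgeR adjusted p = 0.013). NEAT1, the scaffold of paraspeckles, fell by 0.60 on the log2 scale, from 231, 230 and 315 CPM in PUS7KO to 143, 153 and 213. KCNQ1OT1 (-0.60) and the snoRNA hosts SNHG6 (-0.49) and ZFAS1 (-0.38) fell too. MALAT1, SNHG6 and ZFAS1 were also called with the GC trend removed, and NEAT1 and KCNQ1OT1 were not. Without SNRPD2KO replicate 1 only SNHG6 of this list was called, without SNRPD2KO replicate 2 none was, without PUS7KO replicate 1 MALAT1 and SNHG6 were, and without PUS7KO replicate 2 MALAT1, SNHG6 and ZFAS1 were. MALAT1 overlaps its antisense partner TALAM1 and another gene on the opposite strand. Whether counting used strand is not given in the sources used here, so the MALAT1 value is uncertain. With the GC trend removed TALAM1 was lower too (-0.93, edgeR adjusted p = 0.022).

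The integrated stress response, in which ATF4 raises amino acid supply and chaperone genes, gave 3 falls and no rise among 27 genes, 11.1% called against 4.77% of all genes and 3.2% called lower. The median log2 fold change of the list was -0.07. ATF3, a transcription factor of the response and of other stresses, stood at 167, 161 and 182 CPM in SNRPD2KO and at 257, 235 and 269 in PUS7KO, without overlap (log2 fold change -0.58 with a standard error of 0.08, edgeR adjusted p = 0.0057). The cystine transporter SLC7A11 (-0.69) and the ATF4 partner CEBPG (-0.55) fell as well. ATF4 itself was at 737, 706 and 632 CPM against 658, 623 and 666 (0.09, adjusted p = 0.55), and TRIB3 was at 0.00 (adjusted p = 1). ATF3 passed in all 6 fits without 1 library. ATF3 and CEBPG passed with the GC trend removed and SLC7A11 did not (adjusted p = 0.20). CEBPG and SLC7A11 failed without SNRPD2KO replicate 1, SNRPD2KO replicate 2 or PUS7KO replicate 2. Among 29 immediate early genes FOS (0.67) and FOSB (0.66) rose while ATF3, which is also on that list, fell. The 3 calls are 10.3% of the list. FOS stood at 35.4, 31.3 and 21.2 CPM against 19.4, 18.8 and 16.7. FOS and FOSB were lost with the GC trend removed (adjusted p = 0.073 and 0.11) and by thinning all libraries to the smallest total, and of the 6 fits without 1 library FOS passed in 1 and FOSB in 2.

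Of 53 ribosome biogenesis factors 6 rose and none fell, 11.3% of the list against 1.57% of all genes called higher. The median log2 fold change of the list was 0.14, against 0.01 over all genes. The calls were BOP1 (0.54), RRP1 (0.45), NOL6 (0.44), DHX37 (0.40), DDX56 (0.39) and UBTF (0.38), the last a transcription factor of ribosomal RNA genes. None was called with the GC trend removed, without SNRPD2KO replicate 1, without SNRPD2KO replicate 2 or without PUS7KO replicate 2. Of 51 large-subunit ribosomal proteins RPL26 (-0.40), RPL22L1 (-0.32), RPL22 (-0.31) and RPL7 (-0.30) fell, 7.84% of the list against 3.2% of all genes called lower. RPL26 and RPL22 were also called with the trend removed, and none of the 4 without SNRPD2KO replicate 1, SNRPD2KO replicate 2, PUS7KO replicate 1 or PUS7KO replicate 2. EIF4G1 (0.33) and EIF3B (0.29) rose among 47 translation factors and FARSA (0.38) among 37 aminoacyl-tRNA synthetases. MRPL41 (0.36) rose and MRPL42 (-0.49) fell among 76 mitochondrial ribosomal proteins. These are 4.26%, 2.7% and 2.63% of their lists, below the 4.77% called over all genes. Each of these calls was lost with the GC trend removed and without SNRPD2KO replicate 1, SNRPD2KO replicate 2 or PUS7KO replicate 2.

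Of the 47 lists, 10 had no call: beside those already given they were the ER chaperones (25 genes tested), the respiratory chain (68), cholesterol synthesis (26), glycolysis and hypoxia (35), ERK feedback (21), biliary epithelial markers (7) and fibroblast and endothelial markers (2). Integrins and their matrix ligands gave 2 falls among 44. ITGAV, the integrin alpha V chain, stood at 18.3, 16.2 and 23.5 CPM against 32.4, 35.8 and 32.6 (-0.79), and it passed in all 6 fits without 1 library and with the GC trend removed. COL6A3 fell by 1.30, but its call was lost in each of the 6 fits without 1 library and with the GC trend removed (adjusted p = 0.061). The 2 calls are 4.55% of the list, at the background. EDIL3, a secreted ligand of alpha V integrins that is on no such list, stood at 14.6, 15.1 and 17.8 CPM against 25.8, 33.3 and 27.7 (-0.87). In the remaining lists ACSL4 (-0.71) and ELOVL1 (0.44) were called among 20 fatty acid genes, SHMT1 and MTR (-0.34) among 17 serine and folate enzymes, HSPA6 and HSPA4L (-0.54) among 19 HSF1 chaperones, and ZMAT3 (-0.55), RRM2B (-0.50) and BAX (0.43) among 27 p53 targets. Single calls were SLC7A11 among 19 NRF2 targets, TEAD1 (-0.46) among 23 YAP-TEAD genes, APC (-0.61) among 32 WNT genes, TGFBR1 (-0.42) beside INHBA among 29 TGF-beta genes, and the neurofilament NEFM (-0.56) among 12 HEK293T markers. These lists had 3.12% to 11.8% of their genes called, against 4.77% of all genes. With the GC trend removed NEFM was the only one of these calls still made.

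Several of the largest fold changes rested on genes whose libraries varied within a group. WDR73 (log2 fold change 4.30, adjusted p = 0.0068), a WD-repeat protein, stood at 38.3, 3.30 and 29.2 CPM in SNRPD2KO against 1.34, 0.83 and 1.46 in PUS7KO, so that SNRPD2KO replicate 2 lay far below the other two. RPS2, a protein of the small ribosomal subunit, stood at 8.15, 6.49 and 9.56 CPM in SNRPD2KO and at 119, 103 and 160 CPM in PUS7KO (-3.96, adjusted p = 0.0041). The Ctrl libraries held 9.33, 98.5 and 88.1 CPM, so 1 of them was as low as SNRPD2KO. RPS2 has many near-identical pseudogene copies, between which counting can divide reads, and its value is uncertain. MZT2B (-2.64) rested on 1 library, PUS7KO replicate 2 at 15.1 CPM, with the other 5 at 0.60 to 1.98. SHMT1 (2.68) rested on SNRPD2KO replicate 2 at 22.2 CPM. LINC02985 (1.97) stood at 8.15, 6.71 and 7.17 CPM against 0.38, 4.51 and 0.42.

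HBB, the beta chain of adult haemoglobin, had 22, 25 and 22 counts in SNRPD2KO, 0, 0 and 1 in PUS7KO and none in Ctrl. Scaled for depth, the ratio of 69 counts to 1 was 73.4, with an exact 95% counting interval of 12.7 to 2941 that covers counting error only (edgeR adjusted p = 0.0041). Of the 12 blood cell markers 5 were at 0 in every SNRPD2KO library, among them PTPRC, LYZ and HBA1, and HBB was the only marker of that list that was called. The summed level of the list was 8.58 to 11.7 CPM in SNRPD2KO and 5.41 to 6.02 in PUS7KO.

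Other large rises were MIR3648-1 (1.92), with 24.6, 12.4 and 10.4 CPM against 5.35, 2.25 and 5.00, COG5 (1.38), a subunit of the Golgi tethering complex, with 8.69, 7.59 and 14.9 CPM against 1.81, 5.68 and 4.48, and the polarity protein SCRIB (1.12), with 25.8, 17.9 and 16.7 CPM against 11.5, 6.01 and 10.4. UPK3BL2 (1.12) and the neuronal adaptor APBA2 (0.98) completed the 12 largest. Of the 6 fits without 1 library, MIR3648-1 passed in 4, and COG5, SCRIB, UPK3BL2 and APBA2 passed in 1 each. With the GC trend removed, COG5 was still called and MIR3648-1, SCRIB, UPK3BL2 and APBA2 were not. CPNE1 (0.62), a calcium-dependent phospholipid-binding protein, stood at 41.0, 44.2 and 42.3 CPM against 27.8, 26.1 and 29.1, and it shares its strand and part of its sequence with RBM12.

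The other large falls were genes of low level. HSPA6, a stress-inducible HSP70, stood at 1.39, 1.21 and 1.71 CPM against 5.92, 5.84 and 4.37 (-1.88), with Ctrl at 11.8 to 46.1. INHBA, the subunit that forms activin A, stood at 2.47, 2.42 and 3.41 CPM against 7.16, 6.26 and 6.97 (-1.27). OSTN, a secreted peptide, stood at 5.36, 7.59 and 10.7 CPM against 16.3, 22.4 and 15.1 (-1.17). The proton pump subunit ATP6V0D2 (-1.47), the sorting nexin SNX10 (-1.30), the chromosome regulator RCC2 (-1.24), the calcium channel subunit CACNB4 (-1.16) and the zinc finger protein IKZF5 (-1.15) fell by similar amounts. Each of these calls, from HSPA6 to IKZF5, was lost with the GC trend removed. Each was also lost without SNRPD2KO replicate 1, SNRPD2KO replicate 2 or PUS7KO replicate 2. RCC2 passed in 0 of the 6 fits without 1 library and INHBA in 1. At higher levels and with smaller p, PTAR1, a prenyltransferase-like protein, stood at 14.1, 15.2 and 15.02 CPM against 25.1, 28.6 and 25.1 (-0.83). ZNF644 (-0.84) and SCOC (-0.87) had non-overlapping groups of the same kind.

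**Figure D5:**
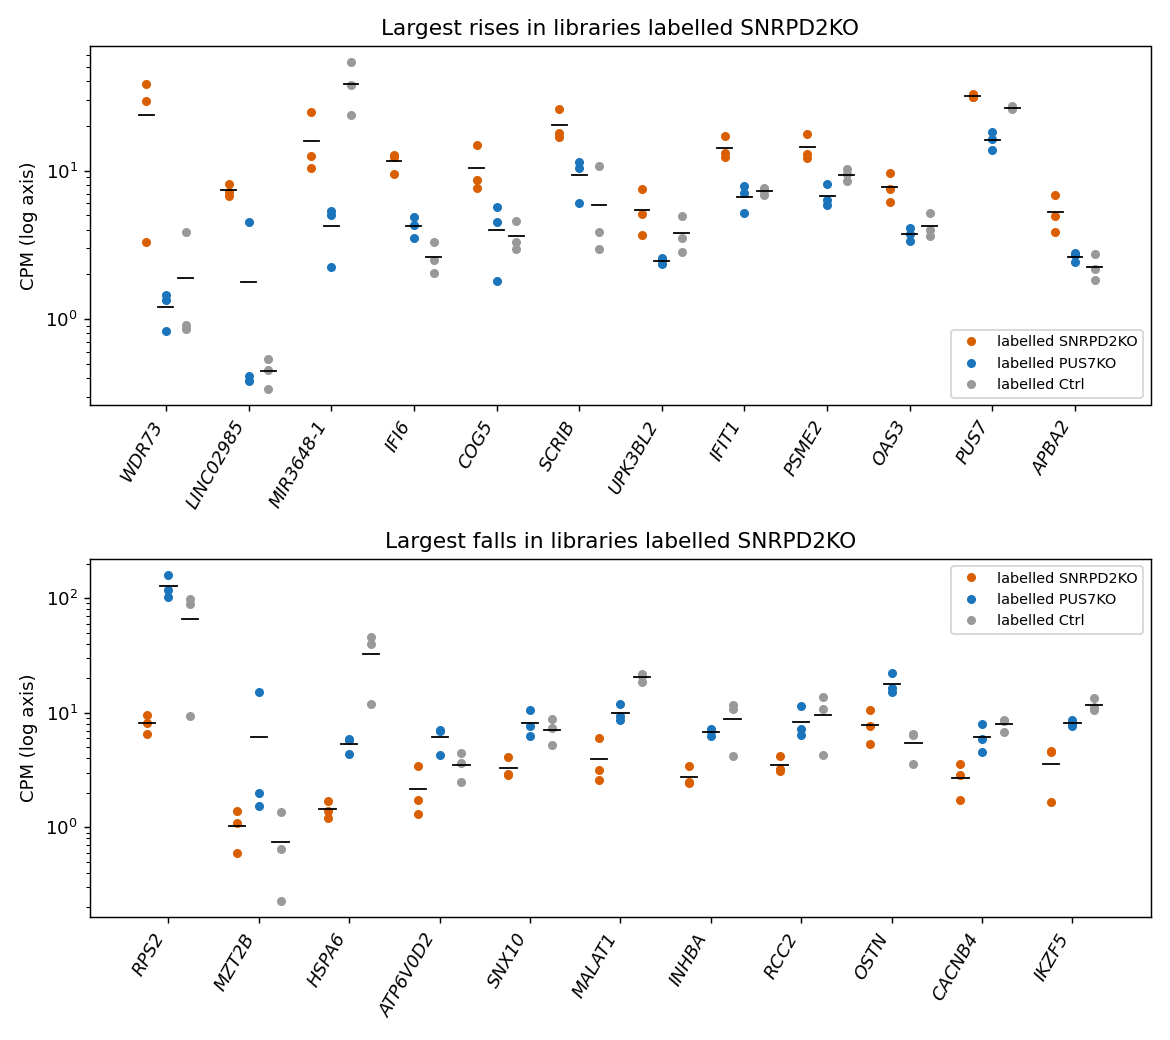
CPM in each library on a log axis for genes among the 12 with the largest rise and the 12 with the largest fall in libraries labelled SNRPD2KO, with short bars for the mean of each group of 3 and Ctrl as background. PUS7 and IFI6 have tight groups, while WDR73, LINC02985 and MZT2B each have 1 library far from the others of its group.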

How the data were processed

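Strand-specific libraries of total RNA depleted of ribosomal RNA were sequenced, per the labels' protocols. The authors deposited whole-number counts per gene without normalization, with gene identifiers, types and coordinates. The submitters' processing notes name cutadapt 4.2, HISAT2 2.2.1, RSEM and build hg38, while their roles, the annotation release and the strand setting of the counting are not given in the sources used here. A count of 0 allows up to 3 counts, or 0.266 to 0.299 CPM, in these 6 libraries.

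Groups came from the sample labels. All 9 HEK293T libraries were fitted in edgeR 4.0.16 (R 4.3.3) with TMM factors, genes kept by filterByExpr (at least 10 counts by its rule and 15 in total), and quasi-likelihood F tests, two-sided, with Benjamini-Hochberg adjustment over all 15882 genes tested at 0.05. The biological coefficient of variation was 10.8%. GC content and length came from the longest GENCODE 29 transcript. The pipeline was tested on simulated data that had a single dispersion, no GC trend and no deviant library. That test therefore does not cover these features of the real libraries.

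Named genes were the 12 largest per direction (at least 5 CPM in the higher group, no overlap), the 12 smallest adjusted p, both targets up to 6 called members per list and small RNAs by gene type. Not every gene meeting this rule is reported here. The members and the 47 gene lists were chosen with earlier results of these data known. Alternatives were other scalings and filters, limma voom 3.58.1, DESeq2 1.42.0, robust dispersions, a replicate block, the 6 libraries alone, thinning, GC trend removal, stricter thresholds and each library left out.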

Additional observations from a re-analysis of the deposited data

How the results depend on the processing

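Against 758 calls (249 higher, 509 lower), the count was 1292 (403 and 889) with no count filter. With DESeq2 374 genes were higher. With the 6 libraries alone 464 were called and 122 were higher. A test against a 1.5-fold change called 2 (1 and 1), and there PUS7, still at 0.98, had an adjusted p of 0.69. An adjusted p under 0.01 left 31 (10 and 21), and removing the GC trend left 127 (65 and 62). Leaving out 1 library gave 22 to 1891 calls, 9 to 846 higher and 13 to 1045 lower; the cause was not tested. RLE and upper quartile factors, a 1 CPM filter, a minimum count of 50, limma voom, robust dispersions, small noncoding RNAs left out and thinning gave 570 to 1015 calls. SNRPD2 passed in none of these settings. PUS7 passed in each except the 1.5-fold test. No named gene changed direction. With the GC trend removed, 751 of the 758 called genes kept their sign, but the balance of calls turned from mostly lower to 65 higher and 62 lower. Mitotic genes went from 4 higher and 7 lower to 3 and 0, U1 and U2 proteins from 0 and 3 to 1 and 0, and immediate early genes from 2 and 1 to 0 and 2. The replicate block gave 560 calls, 537 of them among the 758. Same-numbered libraries of the 2 groups had correlations of deviations of 0.04, -0.09 and -0.04, and differently numbered ones -0.09 to 0.13. No pairing by number is visible in these values, but they cannot tell whether same-numbered libraries were prepared together. Depth limits genes under about 1 CPM, where 3 counts equal 0.266 to 0.299 CPM.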

Other observations

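With the GC trend removed, 45 genes were called that the unadjusted comparison did not call, and they are named here after their values were seen. The values in brackets are log2 fold changes with that trend removed, SNRPD2KO minus PUS7KO. The small heat shock protein HSPB1 (-0.55) and the AP-1 subunit JUN (-0.39) were lower in SNRPD2KO. The proteasome genes PSMD14 (0.54), PSMA5 (0.54) and PSMD6 (0.46), the splicing helicase DHX15 (0.49), the SMN complex helicase DDX20 (0.47), the H/ACA assembly factor SHQ1 (0.46) and the U5 RNA copy RNU5F-1 (0.91) were higher. The transferrin receptor TFRC (0.37) and the mitotic kinase WEE1 (0.39) were higher as well. Without the removal HSPB1 was at -0.36, JUN at -0.27 and RNU5F-1 at 0.52. SHQ1, TFRC and PSMA5 were at 0.25, PSMD6 at 0.21, WEE1 at 0.12, DHX15 and DDX20 at 0.11 and PSMD14 at 0.04. These calls thus rest on the removal. After it, the class of lowest GC content held 37 higher and 26 lower calls, against 1 and 400 before. Whether the removal itself makes calls in that class was not tested.

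Embryonic and theta globin did not move with HBB. HBE1 had 35, 26 and 35 counts in SNRPD2KO and 34, 60 and 50 in PUS7KO (log2 fold change -0.49, edgeR adjusted p = 0.26). HBQ1 had 96, 84 and 88 counts against 89, 85 and 64 (0.27, adjusted p = 0.50). LLPH was called higher in SNRPD2KO (3.99, adjusted p = 0.039) from 1 library, SNRPD2KO replicate 3 at 345 CPM, with the other 5 at 5.17 to 8.18 CPM.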
